A study of Mus musculus with 18 samples.

Results

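The ephrin-B ligands (Efnb1, Efnb2 and Efnb3) and the EPHB receptors (Ephb1, Ephb2, Ephb3, Ephb4 and Ephb6) were followed in lymphatic and blood vascular endothelial cells of mouse embryos. The genes were chosen by family membership, 8 in all, out of 19938 genes with exactly 1 gene symbol on the array. Earlier results of these data were known when the family was chosen. Of the 8, 7 had such a row, namely all 3 ligands and 4 of the 5 receptors, and Ephb2 was not analysed here. Ephb1 had 2 rows, of which the brighter was used. Their RNA levels were read from 18 Affymetrix Mouse Gene 1.0 ST arrays, which carry probes along the exons of each gene. The 6 groups were lymphatic endothelial cells (LEC) at embryonic days 14.5 (E14.5), 16.5 (E16.5) and 18.5 (E18.5), and blood vascular endothelial cells (BEC) at the same 3 ages, with 3 biological replicates each. The LEC and BEC samples of an age came from 3 litters. The labels give no strain, genotype or treatment, and they describe the isolation of the cells only by citing another publication. The title of the series places these data in a study of LEC identity and an enhancer occupied by the transcription factor GATA2.

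Ephrin-B ligands are transmembrane proteins, and EPHB receptors are receptor tyrosine kinases. They meet where neighbouring cells touch, and signals can run into the cell with the receptor (forward) and into the cell with the ligand (reverse). In the vasculature, Efnb2 is a classical marker of arterial endothelium and Ephb4, its preferred receptor, of veins. In the mouse, Efnb2 is also needed for the remodelling and valve formation of lymphatic vessels, where Ephb4 signals with it. Ephb6 is a receptor whose kinase domain lacks catalytic activity.

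Promoter sequences are given for the 3 genes that differed most with cell type or age and for Ephb4, which did not pass the test in any comparison. Each line holds the 250 bases upstream of the RefSeq start in build GRCm38.p6, read 5' to 3' on the strand of the gene. Capitals mark the motif matches described after the sequences.
Efnb2, chr8:8661243-8661492, minus strand: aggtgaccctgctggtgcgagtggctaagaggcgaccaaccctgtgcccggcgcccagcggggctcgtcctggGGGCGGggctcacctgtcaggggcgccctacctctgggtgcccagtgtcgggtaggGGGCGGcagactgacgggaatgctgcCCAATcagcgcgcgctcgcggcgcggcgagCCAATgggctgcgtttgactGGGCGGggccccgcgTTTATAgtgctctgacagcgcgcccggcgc
Efnb1, chrX:99135811-99136060, plus strand: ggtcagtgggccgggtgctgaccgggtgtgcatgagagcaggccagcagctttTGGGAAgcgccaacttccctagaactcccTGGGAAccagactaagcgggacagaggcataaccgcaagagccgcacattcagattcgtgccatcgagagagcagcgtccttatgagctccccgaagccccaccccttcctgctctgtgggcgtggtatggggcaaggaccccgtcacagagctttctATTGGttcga
Ephb1, chr9:102354694-102354943, minus strand: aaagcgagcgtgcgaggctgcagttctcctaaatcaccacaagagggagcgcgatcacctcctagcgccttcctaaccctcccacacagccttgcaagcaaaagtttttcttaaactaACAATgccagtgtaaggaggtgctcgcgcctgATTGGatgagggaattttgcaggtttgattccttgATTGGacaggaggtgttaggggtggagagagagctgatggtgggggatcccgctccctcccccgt
Ephb4, chr5:137349859-137350108, plus strand: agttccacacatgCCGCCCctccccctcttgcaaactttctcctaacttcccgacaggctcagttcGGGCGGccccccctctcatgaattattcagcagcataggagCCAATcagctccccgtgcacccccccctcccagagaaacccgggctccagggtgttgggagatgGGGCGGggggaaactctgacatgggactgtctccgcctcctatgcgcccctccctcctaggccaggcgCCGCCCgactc

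The GC content of these stretches was 72% for Efnb2, 60% for Efnb1, 54% for Ephb1 and 64% for Ephb4, against a median of 52.4% over 32851 promoters of the same length. Each motif was searched on both strands. The CCAAT box (CCAAT), found in 33.8% of all promoters, matched in all 4, with 2 matches in Efnb2 and in Ephb1 and 1 in Efnb1 and in Ephb4. The GC box (GGGCGG, in 32.7% of all promoters) matched 3 times in Efnb2 and 4 times in Ephb4, and the TATA box (TATAAA, 12.4%) matched only in Efnb2 among the 4, on the opposite strand and 30 bases upstream of the start. TGGGAA, the core of the site of the Notch effector RBPJ (21.6% of all promoters), matched 2 times in Efnb1. The SOX core ACAAT (27.7%) matched 1 time in Ephb1. GATA words (AGATA or TGATA followed by A or G, in 26.5% of all promoters) were not found in these 4 windows. The matches are descriptions of letters and say nothing of binding. Of the 8 genes, 7 had an entry in the RefSeq promoter table and Efnb3 did not.

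The labels were first set against marker genes. All 9 measured lymphatic markers were higher in LEC than in BEC at every age, with a median difference of 4.03 on the log2 scale over the 3 ages, among them Mmrn1, Flt4 and Stab1. All 10 blood endothelial markers, among them Cd93, Plvap and Ets1, were lower in LEC at every age (median -3.26). Of 10 pan-endothelial markers, 8 were lower in LEC over the 3 ages (median -1.06). Markers of other cells were also measured in these samples. All 8 mast cell markers and all 8 macrophage markers were higher in LEC over the 3 ages, and all 10 mural cell markers (pericytes and smooth muscle) were lower in LEC. Of all genes, 37.1% passed the limma test described below over the 3 ages. At the single ages 16.5%, 25.2% and 30.4% passed, youngest first. Within a group, arrays correlated at 0.988 to 0.992 at the youngest age, 0.984 to 0.99 at the next and 0.976 to 0.982 at the oldest. Since the samples are bulk RNA, fewer cells of a type and less RNA per cell cannot be told apart.

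Averaged over the 3 ages, LEC held more Ephb1 RNA and less ephrin-B ligand RNA than BEC. Ephb1 was higher and Efnb1, Efnb2 and Efnb3 were lower in LEC, while Ephb3, Ephb4 and Ephb6 did not pass the test. A gene was called at a limma adjusted p under 0.05, with adjustment over all 19938 genes, and 37.1% of all genes were called in this comparison. At E14.5, 1 member was higher (Ephb1) and 1 lower (Efnb2), against 16.5% of all genes called. At E16.5, Ephb1 was higher and Efnb1 and Efnb2 were lower, against 25.2% of all genes. At E18.5, Ephb1 was higher and Efnb1 and Efnb3 were lower, against 30.4% of all genes. The median difference of the 7 members over the 3 ages was -0.05, beside -0.02 over all genes. The plot of the array values shows these levels gene by gene, and the plot of the LEC minus BEC differences shows them by age. The 11 comparisons share arrays, so their results are not independent of each other.

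**Figure D1:**
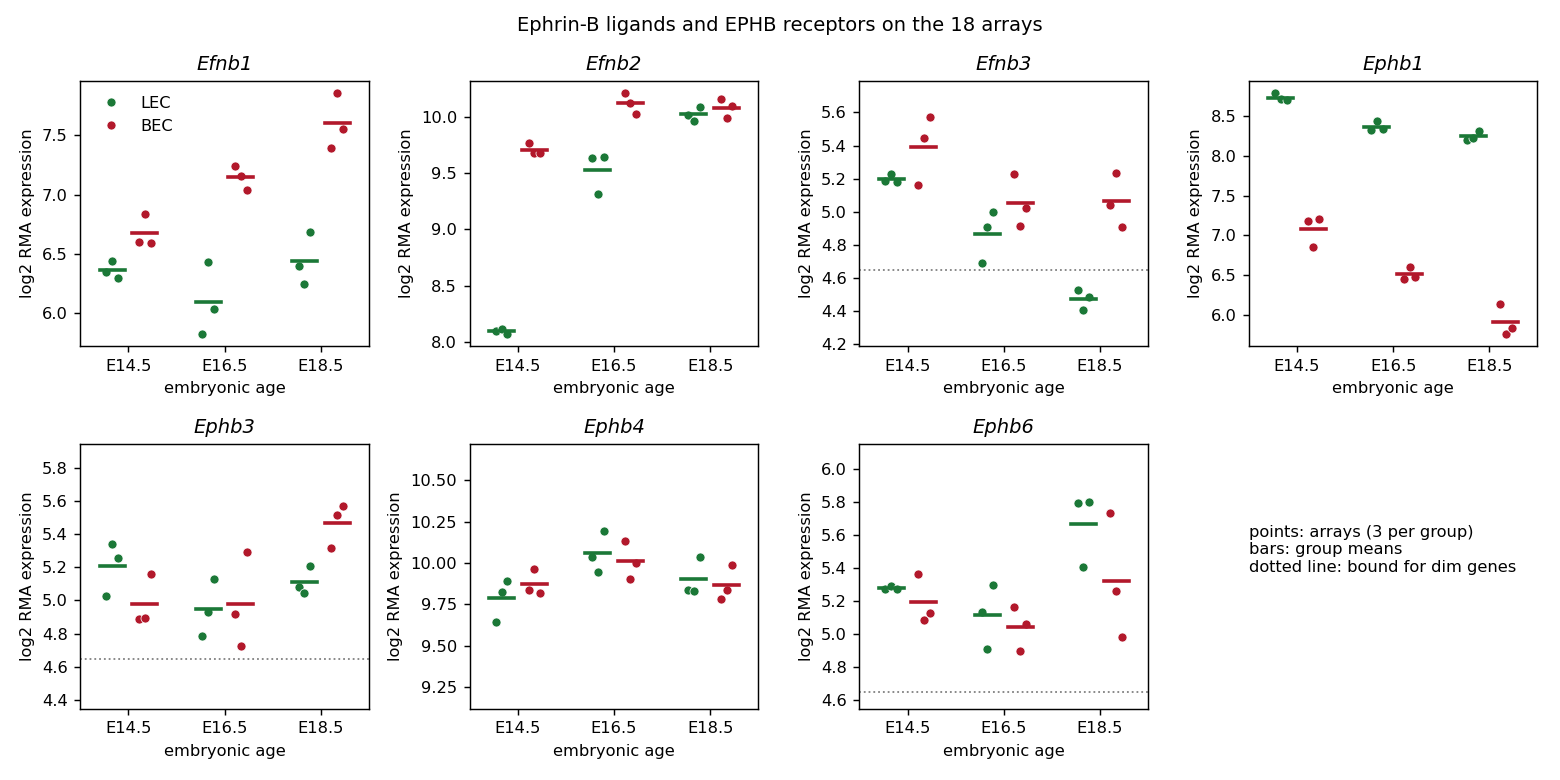
Log2 RMA expression (vertical axis, a scale of its own in each panel) of the 7 measured genes by embryonic age (horizontal axis). Points are arrays, 3 per group, with LEC in green and to the left of BEC in red at each age. Bars are group means, and the dotted line is the bound for dim genes at 4.649. LEC arrays of Efnb2 lay at 8.07 to 8.12 at E14.5 and at 9.97 to 10.09 at E18.5.

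**Figure D2:**
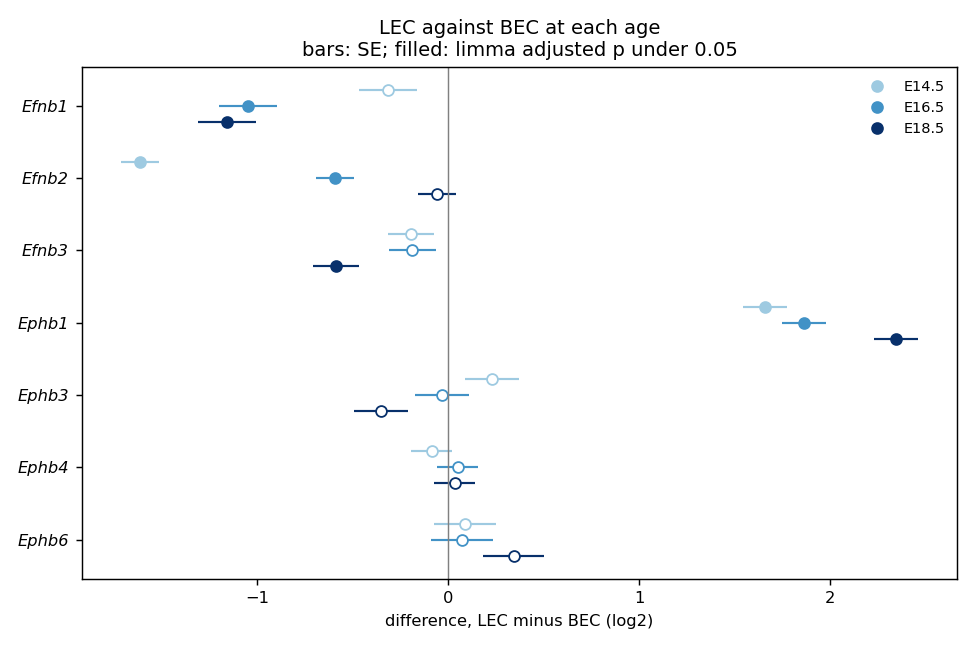
Difference between LEC and BEC (LEC minus BEC, log2, horizontal axis) of each gene by age, from light (E14.5) to dark (E18.5). Bars are standard errors and filled points have a limma adjusted p under 0.05. Efnb2 ran from -1.61 at E14.5 through -0.59 to -0.06 at E18.5, whereas Ephb1 ran from 1.66 through 1.86 to 2.34.

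The age changes also differed between genes. From E14.5 to E16.5 in LEC, Efnb2 rose and Ephb1 fell, so 2 of 7 members were called, against 13.8% of all genes. From E16.5 to E18.5 in LEC, Efnb2 and Ephb6 rose and Efnb3 fell, against 34.4% of all genes called. Over the whole interval from E14.5 to E18.5 in LEC, Efnb2 rose and Efnb3 and Ephb1 fell, against 40.9% of all genes. In BEC, Efnb2 rose and Ephb1 fell from E14.5 to E16.5, against 9.76% of all genes. Between E16.5 and E18.5 in BEC, Efnb1 and Ephb3 rose and Ephb1 fell, against 32.3% of all genes. Over the whole interval in BEC, Efnb1, Efnb2 and Ephb3 rose and Efnb3 and Ephb1 fell, so 5 of 7 members were called, against 30.6% of all genes. The change from E14.5 to E18.5 differed between LEC and BEC for Efnb1, Efnb2 and Ephb1, 3 of 7 members, by the interaction test, against 8.85% of all genes called.

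**Figure D3:**
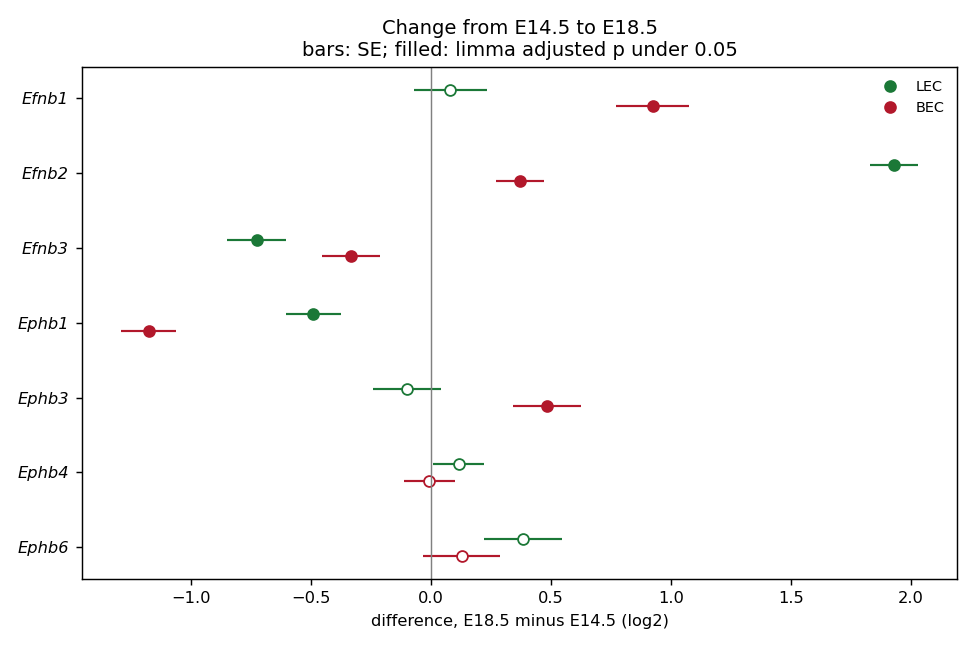
Change between E14.5 and E18.5 (E18.5 minus E14.5, log2, horizontal axis) of each gene in LEC (green, upper point) and BEC (red, lower point). Bars are standard errors and filled points have a limma adjusted p under 0.05. Efnb2 changed by 1.93 in LEC and 0.37 in BEC, and Efnb1 by 0.08 in LEC and 0.93 in BEC.

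Efnb2, the arterial ligand, was the member with the largest age change among the 7. In LEC, its log2 expression on the 3 arrays was 8.09, 8.12 and 8.07 at E14.5, 9.63, 9.32 and 9.64 at E16.5, then 10.02, 9.97 and 10.09 at E18.5. In BEC it was 9.77, 9.68 and 9.67 at E14.5, 10.21, 10.12 and 10.02 at E16.5, then 10.15, 9.99 and 10.10 at E18.5. At the 2 earlier ages all LEC arrays lay below all BEC arrays, and the cell types overlapped at E18.5. Efnb2 was 3.06-fold lower in LEC at E14.5, a difference of -1.61 ± 0.10 (limma estimate ± SE, n = 3 arrays per group, adjusted p = 5.34e-10). At E16.5 it was 1.51-fold lower in LEC (-0.59 ± 0.10, limma adjusted p = 0.000126). At E18.5 the difference was -0.06 (95% interval -0.27 to 0.15, limma adjusted p = 0.712), so a difference in either direction inside that interval is not resolved by these arrays.

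Within LEC, Efnb2 rose 2.7-fold from E14.5 to E16.5 (1.43 ± 0.10, limma adjusted p = 2.79e-08) and a further 1.41-fold to E18.5 (0.50 ± 0.10, adjusted p = 0.00091). No array of a later age overlapped with those of the earlier one. Over the whole interval the rise in LEC was 3.81-fold (1.93 ± 0.10, adjusted p = 8.84e-11), beside 1.3-fold in BEC (0.37 ± 0.10, adjusted p = 0.00725). The BEC rise lay between E14.5 and E16.5 (0.41 ± 0.10, limma adjusted p = 0.014), and from E16.5 to E18.5 the BEC difference was -0.04 (adjusted p = 0.788). The earlier BEC step missed the threshold without replicate 2 or replicate 3 of BEC at E14.5 and without replicate 1 or replicate 2 of BEC at E16.5. The change over the interval was larger in LEC than in BEC by 1.56 ± 0.14 (limma interaction test, adjusted p = 9.44e-07). In the order of the 6 group means, BEC at E16.5, BEC at E18.5 and LEC at E18.5 overlapped with each other. Below them came BEC at E14.5, LEC at E16.5 and LEC at E14.5, each separated from the group above it.

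Markers of other cells that changed in LEC over the same interval are set beside the Efnb2 rise. The 8 macrophage markers had a log2 summed level of 10.68 to 10.76 in LEC at E14.5, 10.94 to 11.82 at E16.5, then 11.89 to 12.46 at E18.5, and 7 of 8 rose and 1 fell from E14.5 to E18.5. In BEC that sum was 8.73 to 8.98, 8.30 to 8.62 and 8.59 to 9.01. The 8 keratinocyte and epithelial markers summed to 8.69 to 8.89, 8.48 to 9.47 and 10.64 to 11.35 in LEC, and to 8.20 to 8.48, 8.02 to 8.28 and 9.18 to 9.75 in BEC. Of the keratinocyte markers, 0 of 8 were called in LEC from E14.5 to E16.5, and 6 of 8 rose from E16.5 to E18.5. Of the macrophage markers 6 of 8 rose in LEC from E14.5 to E16.5. All 8 macrophage markers had a mean above the bound for dim genes in LEC, and the part of these cells in the Efnb2 level was not tested. Blood endothelial markers, 10 in number, summed to 10.62 to 10.78, 10.82 to 11.03 and 11.15 to 11.44 in LEC, and to 13.54 to 13.65, 13.76 to 13.86 and 13.71 to 13.88 in BEC. In LEC 5 of them rose and 2 fell over the interval (median 0.33). Pan-endothelial markers, 10 in number, summed to 13.46 to 13.47, 13.63 to 13.76 and 13.65 to 13.86 in LEC, where 6 rose and 3 fell over the interval. Mast cell markers rose in LEC at 3 of 8 genes and fell at 0 from E14.5 to E16.5 (median 0.79), among them Hdc, the enzyme that makes histamine, with means of 12.00 at E14.5 and 13.20 at E16.5. Of 5 platelet and megakaryocyte markers, 3 rose and 0 fell in LEC from E14.5 to E18.5 (median 0.47), and their sum was 7.80 to 7.97, 8.45 to 9.38 and 9.10 to 9.60. Pf4, a platelet chemokine, had LEC means of 5.58, 8.08 and 8.84 by age. The other markers of this list moved less. Itga2b had LEC means of 5.76, 6.48 and 6.31, and Ppbp of 4.60 (under the bound for dim genes), 4.68 and 5.07. Gp9 read 5.53, 5.38 and 5.45, and Treml1 6.02, 5.80 and 6.16. Of all genes, 13.8% were called in LEC from E14.5 to E16.5, 34.4% from E16.5 to E18.5 and 40.9% from E14.5 to E18.5. The part of these lists in the Efnb2 rise was likewise not tested.

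Efnb1, a ligand of EPHB receptors present in many tissues, was lower in LEC than in BEC from E16.5 on. In LEC the arrays read 6.35, 6.44 and 6.29 at E14.5, 5.82, 6.43 and 6.04 at E16.5, then 6.40, 6.25 and 6.68 at E18.5. In BEC they read 6.60, 6.83 and 6.59, then 7.24, 7.15 and 7.04, then 7.39, 7.86 and 7.55. Every LEC array lay below every BEC array of its age. The difference was -0.32 ± 0.15 at E14.5 (limma adjusted p = 0.207) and -1.05 ± 0.15 at E16.5 (2.07-fold lower in LEC, adjusted p = 2.22e-05). By E18.5 it was -1.16 ± 0.15 (2.23-fold lower, adjusted p = 6.31e-06). In BEC, Efnb1 rose 1.9-fold from E14.5 to E18.5 (0.93 ± 0.15, limma adjusted p = 0.000107), and the BEC arrays of the 3 ages did not overlap. The BEC steps were 0.47 ± 0.15 to E16.5 (adjusted p = 0.0583) and 0.46 ± 0.15 to E18.5 (adjusted p = 0.0291). The steps were of nearly the same size, and neither call was firm, since the earlier step passed under 6 of 15 alternatives and the later one was lost under 4 of 14. In LEC, the same change was 0.08 ± 0.15 (95% interval -0.24 to 0.40, adjusted p = 0.705), and the arrays of the 3 ages overlapped. The LEC change was below the BEC change by -0.84 ± 0.21 (limma interaction test, adjusted p = 0.0172). Without replicate 2 of BEC at E18.5, the highest Efnb1 array, that difference was -0.72 with adjusted p = 0.0518, and the adjusted p ranged from 0.00671 to 0.0518 over 20 alternatives.

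Mural cell markers moved in BEC at the same ages as Efnb1. The log2 summed level of the 10 markers was 9.14 to 9.27, 9.23 to 9.33 and 9.03 to 9.56 in LEC at the 3 ages in order, and 9.33 to 9.45, 10.29 to 10.51 and 11.75 to 12.07 in BEC. All 10 rose in BEC from E14.5 to E18.5 (median 1.58), and in LEC 3 rose and 3 fell. Of all genes, 30.6% were called in BEC and 40.9% in LEC over that interval. Rgs5, a pericyte gene, rose by 4.19 in BEC over the interval, and Pdgfrb, a receptor in the mural list, rose by 2.22 in BEC. In LEC, Rgs5 had means of 3.88 at E14.5 and 4.50 at E16.5, both under the bound for dim genes, and 5.28 at E18.5, so the size of its rise in LEC is not resolved. Pdgfrb fell by 1.51 in LEC, where its mean at E14.5 (7.76) lay above that of BEC (6.62). Of the 10 markers, 9 had a BEC mean above the bound for dim genes at E14.5, and all 10 did at the later ages. Their part in the Efnb1 result was not tested.

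**Figure D4:**
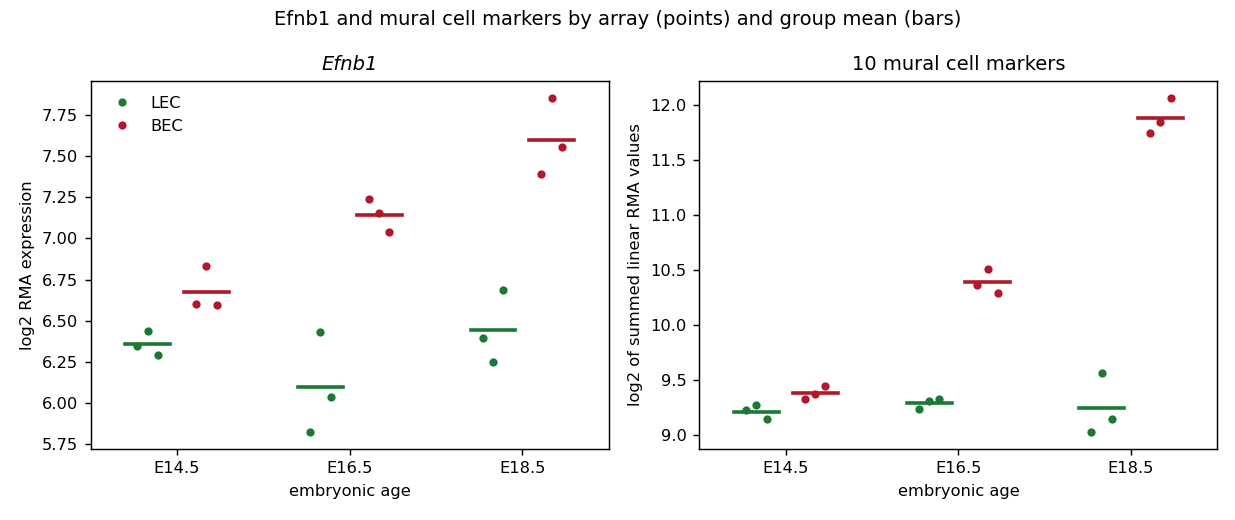
Left, log2 RMA expression of Efnb1 and right, log2 of the summed linear RMA values of 10 mural cell markers, by embryonic age (horizontal axes), with LEC in green left of BEC in red. Points are arrays, 3 per group, and bars are group means. The BEC sums of the markers lay at 9.33 to 9.45 at E14.5 and at 11.75 to 12.07 at E18.5, and the BEC arrays of Efnb1 at 6.59 to 6.83 and at 7.39 to 7.86.

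Efnb3, a ligand known from axon guidance at the midline of the spinal cord, was close to the bound for dim genes, 4.649, which is the 95th percentile of olfactory and vomeronasal receptor rows. In LEC it read 5.18, 5.23 and 5.18 at E14.5, 4.69, 4.91 and 4.999 at E16.5, then 4.53, 4.41 and 4.48 at E18.5. In BEC it read 5.16, 5.45 and 5.57, then 5.23, 4.91 and 5.02, then 5.04, 5.24 and 4.91. All 3 LEC arrays of E18.5 lay under the bound and below the 3 BEC arrays of that age, while LEC and BEC overlapped at the earlier ages. The measured difference at E18.5 was -0.59 ± 0.12 (limma adjusted p = 0.000965). With LEC set at the bound, Efnb3 was at least 1.33-fold lower in LEC than in BEC at E18.5, and at least 1.46-fold lower in LEC at E18.5 than at E14.5 (measured -0.72 ± 0.12, adjusted p = 9.18e-05). Over the 3 ages the difference was -0.32 ± 0.07 (limma adjusted p = 0.00103), and without the E18.5 arrays it was -0.19 with adjusted p = 0.103 (range over 26 alternatives 0.000321 to 0.103). The LEC step from E16.5 to E18.5 was -0.39 ± 0.12 (adjusted p = 0.0187), a call lost under 5 of 14 alternatives. In BEC the change from E14.5 to E18.5 was -0.33 ± 0.12 (limma adjusted p = 0.0473), a call lost under 6 of 14 alternatives. The changes of the 2 cell types differed by -0.39 ± 0.17 (limma interaction test, adjusted p = 0.196).

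Among the receptors, Ephb1 was higher in LEC at every age and fell with age in both cell types. Ephb1 is a receptor for ephrin-B ligands that is best known from axon guidance in the visual system. In LEC its log2 expression was 8.79, 8.71 and 8.71 at E14.5, 8.33, 8.44 and 8.34 at E16.5, then 8.20, 8.23 and 8.32 at E18.5. In BEC it was 7.18, 6.85 and 7.20, then 6.45, 6.60 and 6.47, then 6.13, 5.75 and 5.83. The 6 groups formed an order in which no group overlapped with its neighbour, from the 3 LEC ages, youngest first, down to the 3 BEC ages, youngest first. The gap between LEC at E16.5 and at E18.5 was narrow, with nearest arrays at 8.328 and 8.322. Ephb1 was 3.16-fold higher in LEC at E14.5 (1.66 ± 0.11, limma adjusted p = 2.26e-09), and 3.64-fold at E16.5 (1.86 ± 0.11, 2.17e-10). By E18.5 it was 5.08-fold higher in LEC (2.34 ± 0.11, 9.22e-12). From E14.5 to E18.5 it fell by 0.49 in LEC (SE 0.11, limma adjusted p = 0.00187) and by 1.17 in BEC (SE 0.11, adjusted p = 3.02e-07). In LEC the step to E16.5 was -0.37 (adjusted p = 0.0383) and missed the threshold without any 1 of its 6 arrays, with adjusted p from 0.00745 to 0.124 over 15 alternatives. The LEC step from E16.5 to E18.5 was not resolved (-0.12, 95% interval -0.36 to 0.12, limma adjusted p = 0.43). In BEC both steps passed, with -0.57 to E16.5 (adjusted p = 0.00371) and -0.60 to E18.5 (adjusted p = 0.000762). The age change was less negative in LEC than in BEC by 0.69 ± 0.16 (limma interaction test, adjusted p = 0.0102).

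The dimmer row of Ephb1 gave the same direction between the cell types and another age pattern in BEC. Its mean was 6.70 ± 0.16, 6.31 ± 0.19 and 6.22 ± 0.19 in LEC at the 3 ages in order, and 5.33 ± 0.06, 4.86 ± 0.23 and 4.97 ± 0.24 in BEC (SD, n = 3 arrays). In this row LEC exceeded BEC at E14.5 by 1.37, at the next age by 1.44 and at the last by 1.25 (SE 0.15 each). From E16.5 to E18.5 in BEC it changed by 0.10 ± 0.15, where the brighter row gave -0.60. In LEC the same step of this row was -0.09 ± 0.15. The difference of the age changes was -0.12 ± 0.21 (limma, unadjusted p = 0.589). With the mean of both rows in place of the brighter one, the difference of the Ephb1 age changes was 0.28 with adjusted p = 0.209, within a range of 0.0022 to 0.209 over 20 alternatives. The 2 rows thus disagree on whether the age change of Ephb1 differed between LEC and BEC.

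Markers of lymphatic endothelium fell in BEC over the same interval as Ephb1. The log2 summed level of the 9 measured was 13.93 to 14.03, 14.35 to 14.43 and 14.39 to 14.64 in LEC, and 11.74 to 11.97, 10.96 to 10.99 and 10.32 to 10.46 in BEC, by age. From E14.5 to E18.5, 5 of 9 rose and 0 fell in LEC (median 0.54), and all 9 fell in BEC (median -1.75). Of all genes, 40.9% were called in LEC and 30.6% in BEC over that interval. All 9 had a mean above the bound for dim genes in BEC at the 2 earlier ages, and 8 at E18.5. Mast cell markers were higher in LEC at each age. The log2 summed level of the 8 mast cell markers was 13.53 to 14.05, 14.58 to 14.64 and 14.21 to 14.57 in LEC, and 11.42 to 12.31, 12.43 to 12.65 and 10.19 to 12.07 in BEC, by age. All 8 were higher in LEC at each age, with median differences of 2.00, 2.36 and 3.73, against 16.5%, 25.2% and 30.4% of all genes called. Of the 8, 7 had a mean above the bound for dim genes in LEC and 6 in BEC at each age. The part of either list in the Ephb1 results was not tested.

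Ephb4, the venous receptor that binds Efnb2, did not pass the test in any of the 11 comparisons. Its arrays read 9.64, 9.82 and 9.89 in LEC at E14.5, 10.04, 9.94 and 10.19 at E16.5, then 9.84, 9.83 and 10.04 at E18.5. In BEC they read 9.84, 9.96 and 9.82, then 10.13, 9.90 and 9.9998, then 9.78, 9.84 and 9.99. Every group overlapped with its neighbours in the order of the means, and the 6 means spanned 0.27. The highest and the lowest group, LEC at E16.5 and LEC at E14.5, did not overlap with each other. The LEC minus BEC difference over the 3 ages was -0.00 ± 0.06, with a 95% interval of -0.13 to 0.13 (limma adjusted p = 0.992). By age it was -0.09 (95% interval -0.31 to 0.14), 0.05 (-0.18 to 0.27) and 0.03 (-0.19 to 0.26), youngest first. The largest of its age steps was 0.27 ± 0.11 in LEC from E14.5 to E16.5 (limma adjusted p = 0.103). That step passed the threshold with array weights (adjusted p = 0.032) and with a variance prior that follows the level (0.0388), in a range of 0.032 to 0.329 over 15 alternatives. The LEC step from E16.5 to E18.5 was -0.16 (limma adjusted p = 0.27) and passed with a common median (-0.28, adjusted p = 0.0467).

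Ephb3 and Ephb6 read between 4.72 and 5.80 on all 18 arrays, all above the bound for dim genes. Ephb3, an EPHB receptor known from the sorting of intestinal epithelial cells, read 5.08, 5.05 and 5.21 in LEC and 5.31, 5.51 and 5.57 in BEC at E18.5. The 2 cell types did not overlap at that age, and the difference of -0.35 ± 0.14 missed the threshold (limma adjusted p = 0.0657). It passed with the replicate block (adjusted p = 0.0379) and under 3 other alternatives, in a range of 0.0379 to 0.235 over 14. At the earlier ages Ephb3 read 5.03, 5.34 and 5.26, then 4.78, 4.93 and 5.13 in LEC, and 4.89, 4.89 and 5.16, then 4.92, 4.72 and 5.29 in BEC. In BEC it rose 1.4-fold from E14.5 to E18.5 (0.48 ± 0.14, limma adjusted p = 0.0127), a call lost without replicate 1 or replicate 2 of BEC at E14.5. Its step from E16.5 to E18.5 was 0.49 ± 0.14 (adjusted p = 0.0143), lost under 3 of 14 alternatives. In that step all 8 keratinocyte and epithelial markers (median 0.95) and 9 of 10 mural cell markers (median 0.96) rose in BEC and none fell. Of all genes, 32.3% were called in this step. The keratinocyte markers summed to 8.02 to 8.28 at E16.5 and 9.18 to 9.75 at E18.5 in BEC, and the mural markers to 10.29 to 10.51 and 11.75 to 12.07. The part of either list in the Ephb3 rise was not tested. Ephb3 in LEC changed by -0.10 ± 0.14 (adjusted p = 0.618), and the changes of the 2 cell types differed by -0.58 ± 0.20 (interaction test, adjusted p = 0.0808).

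Ephb6, the receptor without kinase activity, passed the test in 1 of the 11 comparisons. It read 5.27, 5.29 and 5.27 in LEC at E14.5, 5.13, 4.91 and 5.30 at E16.5, then 5.79, 5.41 and 5.80 at E18.5. In BEC it read 5.37, 5.09 and 5.13, then 5.16, 4.90 and 5.06, then 5.73, 5.26 and 4.98. The LEC arrays of E18.5 lay above those of the earlier ages, and BEC arrays of all ages overlapped with each other. The rise in LEC from E16.5 to E18.5 was 1.47-fold (0.55 ± 0.16, limma adjusted p = 0.0126). In that step, 6 of 8 keratinocyte and epithelial markers also rose in LEC and 0 fell (median 1.95), with sums of 8.48 to 9.47 at E16.5 and 10.64 to 11.35 at E18.5. Krt5, a keratin of basal epidermis, had LEC means of 7.02 and 9.96 at those ages. Mural cell markers rose in LEC at 4 of 10 genes and fell at 1 in the same step, against 34.4% of all genes called. The part of either list in the Ephb6 rise was not tested. The Ephb6 rise missed the threshold without replicate 2 of LEC at E16.5, without replicate 3 of LEC at E18.5 and after renewed quantile normalization (range over 14 alternatives 0.00615 to 0.065). Over the 3 ages, Ephb6 differed by 0.17 between LEC and BEC (95% interval -0.03 to 0.36, adjusted p = 0.18).

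The genes whose pattern over the 6 groups was closest to a member were found for the 3 members whose means spanned at least 1 on the log2 scale. The measure was the root mean square distance between group means after each gene was centred on its own mean, over 13837 candidate genes and 6 groups. Closest to Efnb2 were Enpp3 (0.13), Mamld1 (0.25) and Clec2d (0.26). Enpp3 read 8.38, 9.62 and 9.95 in LEC and 9.72, 10.03 and 10.16 in BEC, youngest age first. Closest to Efnb1 were Cox4i2 (0.06), Cd248 (0.07) and Acacb (0.09), and Cd248 read 5.63, 5.55 and 5.87 in LEC and 6.12, 6.46 and 6.93 in BEC. Closest to Ephb1 were Pld5 (0.13), Tnfaip8 (0.16) and Stab1 (0.16), and Pld5 read 8.07, 7.40 and 7.17 in LEC and 6.30, 5.66 and 5.09 in BEC. Stab1 also stands in the list of lymphatic markers. The other genes named here stand in none of the lists, and which cells carried their RNA in these samples was not tested. Among the members themselves, Ephb3 and Ephb6 were the closest at 0.21, and Efnb2 and Ephb1 the farthest apart at 1.602.

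The ephrin-A ligands and EPHA receptors, the other class of the family, were described in the same way. Over the 3 ages, LEC exceeded BEC for 2 of 14 genes and fell short of it for 3, and 9 did not pass, against 37.1% of all genes called, a share close to that of the list. The median was -0.07 beside -0.02 over all genes. Efna5, a membrane-anchored ligand, was higher in LEC (1.13 ± 0.07, limma adjusted p = 1.96e-10), as was the receptor Epha7 (0.81 ± 0.12, adjusted p = 1.31e-05). The BEC means of Epha7 were 4.36, 4.17 and 4.16 and lay below the bound for dim genes. Epha4, a receptor that also binds ephrin-B ligands, was lower in LEC (-1.30 ± 0.09, adjusted p = 4.48e-10), and so was Efna1, a ligand expressed by endothelium (-0.96 ± 0.07, adjusted p = 4.22e-10). Epha4 rose from E14.5 to E18.5 in LEC by 1.79 and in BEC by 1.31. Its LEC mean at E14.5, 4.74, lay just above the bound for dim genes. In the difference of the age changes, 0 of the 14 genes were called.

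Of 26 signalling partners of EPHB receptors and ephrin-B ligands, 11 were higher and 9 lower in LEC over the 3 ages, against 37.1% of all genes called, with a median of 0.01. Higher were Dab2 (2.17 ± 0.07, limma adjusted p = 1.12e-14), an endocytic adaptor, and Pard3 (1.75 ± 0.06, adjusted p = 1.21e-14), a polarity protein. In the mouse both act with Efnb2 in the uptake of VEGF receptors. Tiam1, an exchange factor for Rac, was higher by 1.61 ± 0.11, and Ptpn13, a phosphatase with PDZ domains, by 1.08 ± 0.10. Lower in LEC were Arhgef15, a guanine nucleotide exchange factor expressed in endothelium (-1.97 ± 0.06, adjusted p = 1.53e-15), and the adaptors Nck2 (-0.47 ± 0.06) and Crk (-0.45 ± 0.06). Fyn, a kinase of the Src family, was lower by -0.44 ± 0.05. All 8 macrophage markers were also higher in LEC over the 3 ages, and the part of macrophages in the partner results, Dab2 among them, was not tested.

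The age changes of these partners were also set between the cell types. From E14.5 to E18.5, 11 of 26 rose and 6 fell in LEC, against 40.9% of all genes called, and 6 rose and 7 fell in BEC, against 30.6%. By the interaction test, 6 changed more upward and 2 more downward in LEC than in BEC, against 8.85% of all genes called, with a median of 0.14 beside -0.01 over all genes. Pard3 rose by 0.46 in LEC, while in BEC it fell by 1.26, a difference of the changes of 1.72 ± 0.15 (limma adjusted p = 4.63e-07). Tiam1 rose by 0.64 in LEC, while in BEC it fell by 0.83, a difference of 1.47 ± 0.27 (adjusted p = 0.00133). Dab2 rose by 1.36 in LEC and by 0.60 in BEC (difference 0.76 ± 0.18, adjusted p = 0.0105). Itsn1 and Vav3, exchange factors for small GTPases, and Rgs3, which binds ephrin-B ligands through its PDZ domain, also changed more upward in LEC, by 0.86, 0.80 and 0.49. Arhgef15 (-0.80) and Fyn (-0.47) changed more downward.

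**Figure D5:**
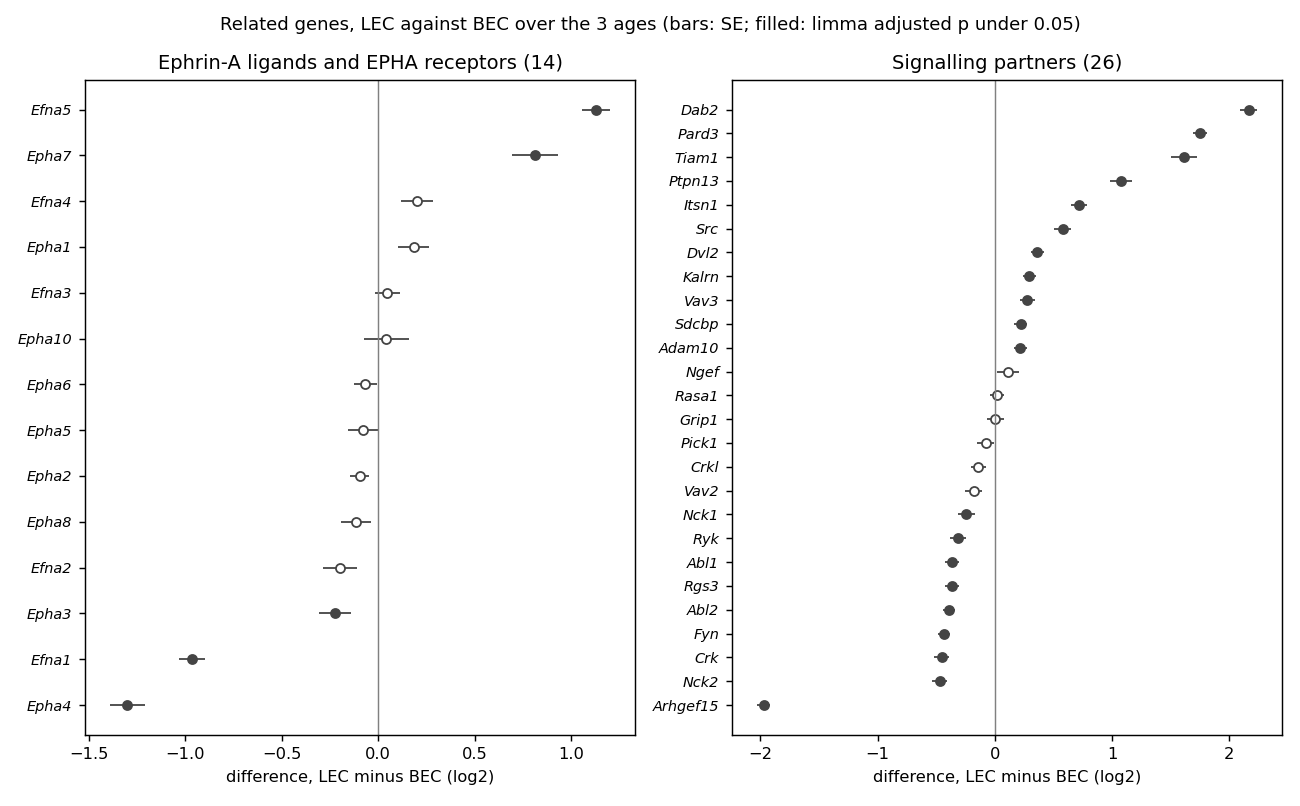
Difference between LEC and BEC over the 3 ages (LEC minus BEC, log2, horizontal axis) of 14 ephrin-A and EPHA genes (left) and 26 signalling partners (right), ordered by the difference. Bars are standard errors and filled points have a limma adjusted p under 0.05. Dab2 stands highest among the partners at 2.17 and Arhgef15 lowest at -1.97.

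Arterial and venous genes are given because Efnb2 and Ephb4 are used as markers of those vessels. Among 14 other arterial genes, 10 were lower in LEC over the 3 ages and 0 higher (median -1.30), against 37.1% of all genes called. The lower genes included Nrp1 (-3.74 ± 0.12), Gja5 (-3.52 ± 0.14), Notch4 (-3.06 ± 0.07) and Sox17 (-2.45 ± 0.09). Of these, Nrp1, Notch4 and Sox17 also stand in the list of blood endothelial markers, so the 2 lists are not independent. From E14.5 to E18.5 in LEC, 7 arterial genes rose and 3 fell, against 40.9% of all genes called. Nrp1, a receptor for semaphorins and VEGF, rose by 2.10 in LEC over that interval. Gja5, a gap junction protein, rose in LEC too, with means of 4.62 ± 0.66 at E14.5, under the bound for dim genes, and 6.46 ± 0.28 at E18.5 (SD, n = 3 arrays), so the size of its rise is a measured value from a dim base. In LEC, Sox17 fell by 1.16 over the same interval. By the interaction test, 3 arterial genes changed more upward and 2 more downward in LEC than in BEC, against 8.85% of all genes called, and these 5 are named after their values were seen. For Gja4, another gap junction protein, LEC showed a rise of 2.06, whereas the BEC level fell by 0.54, a difference of the changes of 2.60 ± 0.21 (limma adjusted p = 3.33e-07). Nrp1 (1.59) and Bmx (0.90) also changed more upward, and Sox17 (-2.11) and Unc5b (-0.78) more downward. The mean of Bmx in LEC at E14.5 (4.49) lay under the bound for dim genes. Of 7 venous genes measured, 3 were higher in LEC, among them Nrp2 (0.88 ± 0.06) and Nr2f2 (0.59 ± 0.06), the transcription factor of venous and lymphatic fate. The other 4 were lower in LEC, with Aplnr at -4.65 ± 0.18, Vwf at -3.33 ± 0.10, Emcn at -2.50 ± 0.08 and Ackr1 at -0.60 ± 0.08. Ackr1 had a mean above the bound for dim genes only in BEC at E18.5.

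Lymphatic valve genes, a setting in which Efnb2 is known to act, were mostly higher in LEC. Of 12, 8 were higher and 2 lower over the 3 ages, against 37.1% of all genes called, with a median of 1.02. Foxc2, the transcription factor that valve formation requires, was higher by 2.88 ± 0.10 (limma adjusted p = 1.6e-14) and Gata2 by 1.99 ± 0.12 (adjusted p = 5.07e-11). All 8 mast cell markers were also higher in LEC over the 3 ages, and the part of mast cells in the Gata2 level was not tested. Cldn11, a tight junction protein, was higher by 1.82 ± 0.09, and Itga9, an integrin of valve leaflets, by 1.41 ± 0.06. Fat4 was lower in LEC (-1.77 ± 0.07), as was Pkd1 (-0.38 ± 0.07). From E14.5 to E18.5, 6 rose and 2 fell in LEC, against 40.9% of all genes called, and 3 rose and 3 fell in BEC, against 30.6%. Foxc2, Fn1 and Cldn11 changed more upward in LEC than in BEC, by 1.97, 1.92 and 1.24, whereas Gata2 fell by 1.03 in LEC and by 1.22 in BEC.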

How the data were processed

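Expression of 18 samples was measured on Affymetrix Mouse Gene 1.0 ST arrays. The authors deposited log2 values from RMA (background correction, quantile normalization and summary of probes) in oligo 1.54.1, per the submitters' processing notes. The sources used here do not give the summary level or say whether all arrays were normalized together. Their table held 35556 rows, of which 21789 had exactly 1 gene symbol in the platform annotation, 1621 had several and 12146 were not listed. For 999 genes with more than 1 row the row with the highest mean was used, which left 19938 genes and no filter on dim genes.

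limma 3.58.1 (R 4.3.3) was used to fit the 6 group means over the 18 arrays, with empirical Bayes moderation (12 residual and 6.11 prior degrees of freedom). The same steps were tested on simulated data. P values are two-sided, adjusted by Benjamini-Hochberg over 19938 genes within each of 11 contrasts, and the threshold was 0.05. Standard errors (SE) and 95% intervals are limma's, and the intervals are not adjusted for multiple tests. Arrays give no read depth, and 3 arrays per group limit the precision. The replicates of a group are litters, per the design text, and the LEC and BEC samples of an age were not paired in the fit.

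The bound for dim genes, 4.649, is the 95th percentile of 1205 olfactory and vomeronasal receptor rows over all arrays. All members are named. Of 5 lists of pathway and vessel genes, up to 4 called genes each way with the largest LEC minus BEC difference are named, if their arrays overlap at no age. Of 12 cell type lists, up to 3 genes with the highest mean are named by that rule. Genes that were named for their age changes, and Rgs5, were chosen after their values were seen. The lists hold 172 genes, of which 161 were measured. The members and lists were chosen with earlier results of these data known. The alternatives were a replicate block (arrays of an age with the same replicate number), only the compared groups, array weights and a variance trend. Further ones were a common median, renewed quantile normalization, a filter on dim genes, the mean of a gene's rows, no E18.5 arrays, and leaving out each array. Promoter sequences are RefSeq's in build GRCm38.p6.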

Additional observations from a re-analysis of the deposited data

Results flagged for a closer look

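For 3 of the 7 measured genes, the change from E14.5 to E18.5 differed between the cell types by limma's interaction test, against 8.85% of all genes called. For Efnb1 the LEC change minus the BEC change was -0.84 ± 0.21 (SE, adjusted p = 0.0172), with a change of 0.08 in LEC and 0.93 in BEC. For Efnb2 it was 1.56 ± 0.14 (adjusted p = 9.44e-07), with 1.93 in LEC and 0.37 in BEC. For Ephb1 it was 0.69 ± 0.16 (adjusted p = 0.0102), with -0.49 in LEC and -1.17 in BEC. The dimmer row of Ephb1 gave -0.12 ± 0.21 for the same quantity. Efnb2 kept an adjusted p of at most 7.14e-05 over its 20 alternatives.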

How the results depend on the processing

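Each of 77 member results was recomputed under 9 other settings, as far as each could be made, and without each array of the compared groups. Of 644 values under the 9 settings, 615 kept their side of the threshold, 11 lost the call and 18 gained it, and 0 called values changed sign. Among all values, 42 changed sign while past the threshold in neither fit. Without 1 array, 35 of 588 values changed their side of the threshold. The number of members called in LEC from E14.5 to E16.5 (2) was 4 with array weights, 1 with a common median and 1 without any 1 of the 6 arrays. In BEC from E14.5 to E16.5 (2) it was 4 with array weights and 1 to 3 without 1 array. Without 1 array it was 3 to 5 for LEC minus BEC at E18.5 (3), 3 to 5 for BEC from E14.5 to E18.5 (5) and 1 to 4 for BEC from E16.5 to E18.5 (3). The cause was not tested. Over all genes, LEC minus BEC at E18.5 had 3707 calls with only the compared groups, against 6071. The LEC change from E14.5 to E16.5 had 4544 with array weights and 1758 to 2293 without 1 array, against 2749. The BEC change from E14.5 to E16.5 had 4022 with array weights, 3318 without the E18.5 arrays and 850 to 1545 without 1 array, against 1945. A common median moved the median of all genes from E16.5 to E18.5 in LEC by -0.12. Calls of that step went from 3170 higher and 3684 lower to 1804 and 4972 in LEC. In BEC they went from 3159 and 3274 to 1879 and 4284, so the balance of calls in this step depends on scaling. The interquartile range of array values was 3.403 to 3.576 at E14.5, 3.54 to 3.641 at E16.5 and 3.182 to 3.362 at E18.5. The replicate numbers are not stated to mark litters, and same-numbered LEC and BEC arrays correlated in their deviations from the group means at -0.107 to 0.13, over 0.1 in 3 of 9 pairs. Of 9 LEC arrays, 4 correlated best with their own number. With the replicate block, Ephb3 at E18.5 passed (-0.35, adjusted p = 0.0379, against 0.0657), and no other member call changed. The consensus correlation within these blocks was 0.0151.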
